A study of Mus musculus with 10 samples.

Results

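The expression of 10 neuropeptide genes (Cartpt, Cck, Gal, Nts, Tac1, Tac2, Sst, Grp, Npy and Trh) was examined in nuclei from the mouse midline thalamus and its neighbours. The 10 genes were chosen by symbol from the 33502 symbols in the count matrix. Nuclei came from punches aimed at the paraventricular thalamic nucleus (PVT), which also took in the mediodorsal nucleus (MD), the intermediodorsal nucleus (IMD), the habenula and GABAergic tissue nearby. All animals were untreated C57BL/6J mice of 12 weeks. Tissue from 4 mice was pooled for each sample, so the library is the unit of replication. There were 10 single-nucleus RNA-seq libraries, 6 of them titled female and 4 with no sex in the title. The deposited cell table lists the nuclei of those 4 as male, and they are called the libraries without a sex label below.

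Of 20503 nuclei, 10410 carried a deposited cluster name of neurons, and 10307 of these had over 1000 genes and were kept. Each was put in a class by the marker that led in it among C1ql3 (PVT), Adarb2 (MD), Lpl (IMD), Gad2 (GABAergic) and Nwd2 (habenula). The leading marker had at least 2 UMIs (counted molecules) and a level at least 2 times that of each other marker. This gave 4202 C1ql3, 1662 Adarb2, 815 Nwd2, 142 Gad2 and 35 Lpl neurons, and 3451 neurons had no leading marker. No neuropeptide gene was used in the split. Other fixed markers of each class were highest in their own class: Glra1 and Htr7 for C1ql3, Grin2c, Opn3 and Tspear for Adarb2, Cdh24, Crhr1 and Adgrd1 for Lpl, Gad1, Slc32a1, Gpr101 and Masp1 for Gad2, and Pou4f1, Chat, Robo3, Chrnb3 and Ano1 for Nwd2. The classes are therefore called PVT-like, MD-like, IMD-like, GABAergic-like and habenula-like. The 10093 other nuclei (glia, ependymal and vessel cells) served as a background for free RNA. Whether some of them express these genes was not tested. Non-neuronal nuclei had a median of 2749 UMIs as listed over all libraries, and neurons 11244. A neuronal level below that of glia therefore does not show absence of expression. The study itself used Tac2 as a habenula marker and Gal as a gene enriched in the PVT, so their pattern is not independent of what its authors reported.

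Libraries held 875 to 7213 nuclei and 5119927 to 55956635 UMIs. The median neuron had 13637 UMIs in the libraries without a sex label and 6876 in the female ones, so sex and depth cannot be told apart here. In addition, 1555 symbols had 50 or more UMIs in the former libraries and none in the latter, and 509 the reverse; all 10 neuropeptide genes had UMIs in both. Of 20457 barcodes, 46 occurred in 2 or more libraries. UMIs were summed per library and class, and levels are given in CPM (the gene's UMIs scaled by the total UMIs of the sum), as mean ± SD over libraries. Sums of under 10 nuclei were left out, which left 10 sums each for the C1ql3, Adarb2 and Nwd2 classes, 5 for Gad2 and 1 for Lpl. Summed levels cannot tell fewer expressing nuclei from less RNA per nucleus. Levels are compared between classes for 1 gene at a time and not between genes.

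Neuropeptides are made as longer precursors that are cut by proprotein convertases, stored in dense-core vesicles and released to act on G-protein-coupled receptors, often at a distance and beside a fast transmitter. Tac1 (substance P and neurokinin A) and Tac2 (neurokinin B) encode tachykinins, and the medial habenula is a well-known site of tachykinin neurons. Gal (galanin), Nts (neurotensin), Cartpt (the CART peptide) and Cck (cholecystokinin) are found in many excitatory neurons, and Sst (somatostatin) and Npy (neuropeptide Y) mark many GABAergic neurons.

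Transcription of several of these genes is known to respond to cyclic AMP through a cyclic AMP response element, the palindrome TGACGTCA, so the sequences in front of the genes that the results turn on are shown here. They are the 250 bases upstream of the annotated start (RefSeq, GRCm38.p6), 5′ to 3′ on the gene's strand. Of the 10 genes, 9 matched the table. Capitals mark the palindrome, its half-site CGTCA on either strand, and the AP-1 motif TGACTCA on either strand.
Cartpt, chr13:99900684-99900933, minus strand: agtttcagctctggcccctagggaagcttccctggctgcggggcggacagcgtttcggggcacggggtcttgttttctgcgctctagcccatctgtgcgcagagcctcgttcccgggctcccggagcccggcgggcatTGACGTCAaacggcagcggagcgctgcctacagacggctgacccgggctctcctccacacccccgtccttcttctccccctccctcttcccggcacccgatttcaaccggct
Sst, chr16:23890845-23891094, minus strand: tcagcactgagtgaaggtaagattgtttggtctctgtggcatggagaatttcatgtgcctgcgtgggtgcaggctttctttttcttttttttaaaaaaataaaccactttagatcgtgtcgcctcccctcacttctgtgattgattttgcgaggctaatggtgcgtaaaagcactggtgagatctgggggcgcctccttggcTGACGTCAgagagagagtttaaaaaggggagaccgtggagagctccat
Nts, chr10:102490419-102490668, minus strand: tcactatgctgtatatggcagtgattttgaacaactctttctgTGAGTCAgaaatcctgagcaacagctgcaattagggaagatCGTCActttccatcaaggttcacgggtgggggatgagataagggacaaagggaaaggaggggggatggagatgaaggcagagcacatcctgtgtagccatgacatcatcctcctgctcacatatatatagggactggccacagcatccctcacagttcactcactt
Gal, chr19:3414545-3414794, minus strand: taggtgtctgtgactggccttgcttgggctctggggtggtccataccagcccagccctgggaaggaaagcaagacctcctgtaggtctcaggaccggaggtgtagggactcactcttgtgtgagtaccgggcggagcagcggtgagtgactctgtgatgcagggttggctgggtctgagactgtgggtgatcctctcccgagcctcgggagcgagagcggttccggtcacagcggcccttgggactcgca
Tac1, chr6:7554811-7555060, plus strand: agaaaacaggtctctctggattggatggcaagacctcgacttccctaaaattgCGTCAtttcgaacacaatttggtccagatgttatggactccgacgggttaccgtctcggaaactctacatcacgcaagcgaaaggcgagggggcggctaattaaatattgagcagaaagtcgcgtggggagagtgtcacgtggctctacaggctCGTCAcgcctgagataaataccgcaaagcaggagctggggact
Cck, chr9:121495695-121495944, minus strand: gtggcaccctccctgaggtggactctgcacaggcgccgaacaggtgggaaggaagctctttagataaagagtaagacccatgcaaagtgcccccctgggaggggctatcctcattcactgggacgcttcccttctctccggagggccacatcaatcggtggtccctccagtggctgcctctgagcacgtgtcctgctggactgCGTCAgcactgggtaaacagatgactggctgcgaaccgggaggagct
Tac2, chr10:127724228-127724477, plus strand: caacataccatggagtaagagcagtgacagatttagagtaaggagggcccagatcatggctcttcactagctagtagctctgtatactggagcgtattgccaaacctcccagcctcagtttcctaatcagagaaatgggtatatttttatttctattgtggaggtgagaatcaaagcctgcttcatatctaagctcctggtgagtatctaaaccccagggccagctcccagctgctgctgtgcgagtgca
Npy, chr6:49822460-49822709, plus strand: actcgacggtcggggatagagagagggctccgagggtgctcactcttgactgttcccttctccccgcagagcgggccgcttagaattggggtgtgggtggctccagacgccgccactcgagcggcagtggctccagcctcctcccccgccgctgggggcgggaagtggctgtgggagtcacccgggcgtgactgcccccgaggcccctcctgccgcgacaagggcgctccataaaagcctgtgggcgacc
The palindrome was found in 2 of the 9 sequences, against 1.55% of 32851 promoters. It lay at -112 to -105 from the start in Cartpt and at -48 to -41 in Sst. The half-site, which is also part of the palindrome, was in 6 of 9 (Cartpt, Cck, Nts, Sst, Tac1 and Trh), against 17.8% of all promoters. It occurred at -197 to -193 and again at -43 to -39 in Tac1, and at -47 to -43 in Cck. Nts alone held the AP-1 motif, at -207 to -201 on the opposite strand, and 4.46% of all promoters did. TATAAA, searched on the gene's strand only, was in 0 of 9 and in 7.59% of all promoters. A match is a run of letters and not a shown binding site. Genes called in the same class did not all share a motif: of the PVT-like pair, Nts held 2 and Gal none of the 3 marked here. Tac2 and Npy held none either.

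To ask whether the genes were expressed above the free-RNA background, all neurons were compared with all other nuclei of the same library. Of the 10 genes, 6 passed the filter on low counts (Cartpt, Cck, Gal, Nts, Tac1 and Tac2) and all 6 were higher in neurons (edgeR quasi-likelihood test, Benjamini-Hochberg adjusted p under 0.05 and log2 fold change over 0.5). That rule called 28.3% of all 14239 genes tested higher. Tac2 averaged 107 ± 149 CPM in neurons and 8.95 ± 5.30 in the other nuclei (log2 fold change 3.04 ± 0.29 SE, edgeR adjusted p = 1.69e-07). For Cck the means were 127 ± 54.1 and 46.0 ± 21.5 (log2 fold change 1.53 ± 0.21 SE, edgeR adjusted p = 1.09e-05). Its level by non-neuronal type ran from 40.7 in ependymal cells to 55.4 in oligodendrocytes. Gal averaged 9.84 ± 4.29 against 3.09 ± 1.84 (log2 fold change 1.68 ± 0.21 SE, edgeR adjusted p = 2.76e-06). The log2 fold changes of Tac1, Nts and Cartpt were 1.54, 1.58 and 1.41, and all 3 passed. For Tac1 the other nuclei included oligodendrocyte precursor cells at 36.6 ± 18.5 CPM over 9 libraries. Astrocytes of these libraries had 3.13 ± 1.41 and oligodendrocytes 6.56 ± 4.60.

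Sst, Grp, Npy and Trh did not pass the filter in this comparison, so no test was made of them. Sst had 6.11 ± 4.78 CPM in neurons and 2.25 ± 2.27 in the other nuclei. Grp, gastrin-releasing peptide, had 3.90 ± 3.38 and 0.666 ± 0.588. Npy was listed the other way round, with 1.20 ± 1.23 in neurons and 3.15 ± 2.93 in the rest. The rest included oligodendrocyte precursor cells, where Npy averaged 14.5 ± 11.1 over 9 libraries. Astrocytes of these libraries had 3.35 ± 3.48 and oligodendrocytes 0. Trh, thyrotropin-releasing hormone, had 60 UMIs in all neurons and 2 in all other nuclei.

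**Figure D1:**
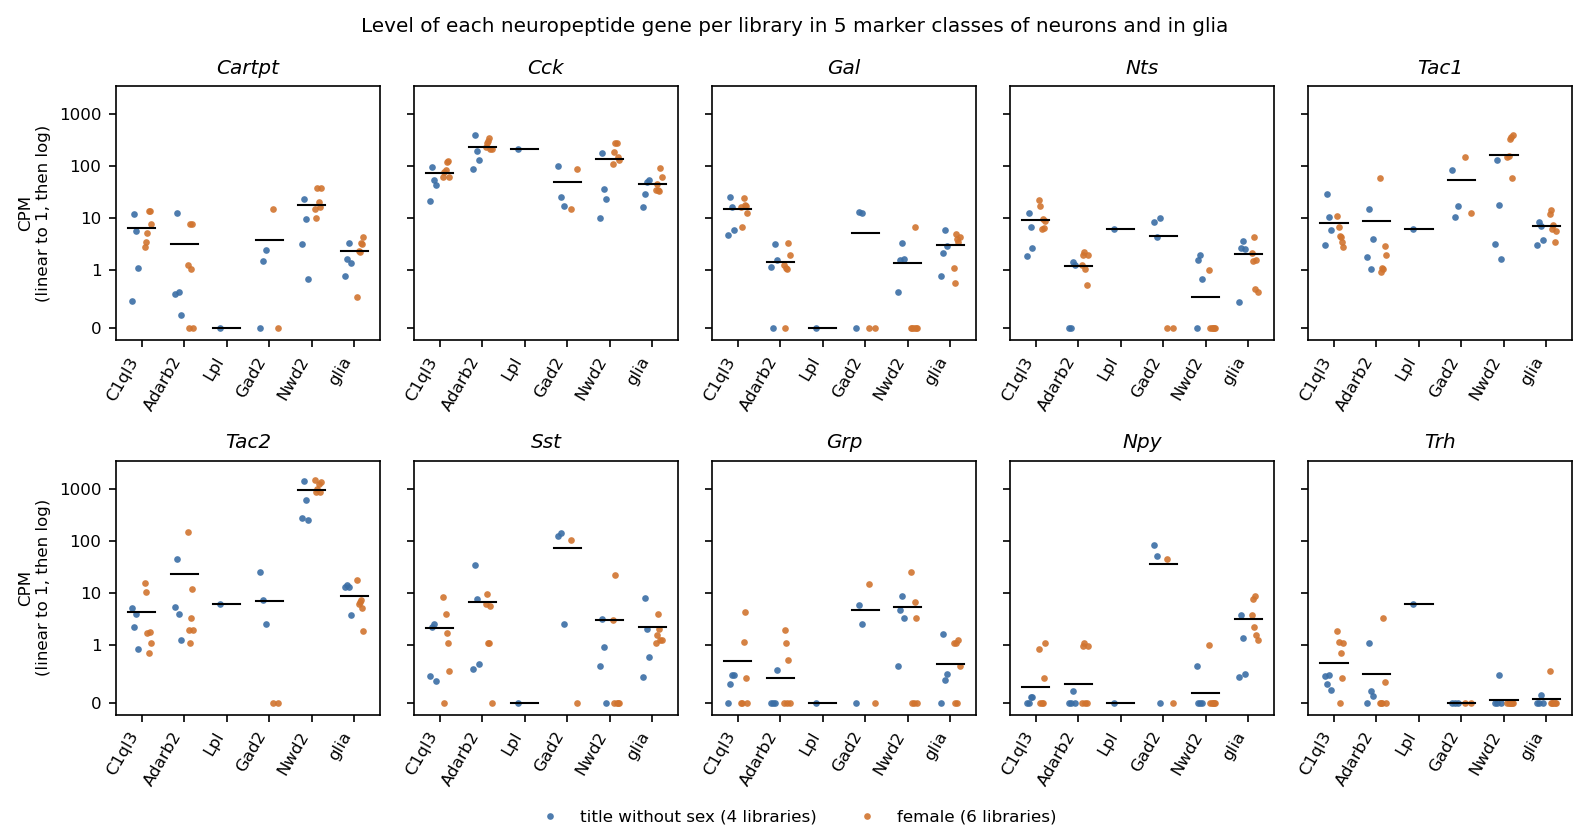
Level of each gene in CPM (vertical axis, linear to 1 and then logarithmic) in the 5 marker classes of neurons and in glia (horizontal axis). Each point is 1 library (blue, title without sex; orange, female) and the bar is the mean over libraries. All 10 habenula-like (Nwd2) sums of Tac2 lie at 249 or above, and the other classes reach 152 at most.

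The classes were then compared, each against the mean of the other 4, in 1 fit with the library as a block. Of the 10 genes, 9 passed the filter and Trh did not. The filter takes its number of sums from the smallest class, here the 1 Lpl sum. A gene could thus be tested because it was high in 1 class, and counts of genes called among those tested are not independent of this. Nts, Grp and Npy failed the filter when the Lpl class was left out. The Gad2 class held Slc17a6, the vesicular glutamate transporter gene of excitatory neurons, at 219 CPM pooled over libraries, against 451 in the C1ql3 class and 108 in astrocytes, so it was not free of excitatory neurons or their RNA. The single Lpl sum had no UMI of Cartpt, Gal, Sst, Grp or Npy, and 3 UMIs there would be 18.7 CPM. For these genes the fitted log2 fold changes therefore depend on the prior count, and values from a fit without the Lpl class (chosen after seeing the data) stand beside them. The median gene moved by 0.08 to 0.20 in the C1ql3, Adarb2, Gad2 and Nwd2 contrasts and by -0.31 in the Lpl contrast.

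Habenula-like (Nwd2) neurons had 4 of 9 tested genes called higher (Tac2, Tac1, Cartpt and Grp), where the same rule called 15.2% of all genes (18.6% without the Lpl class, where 3 of 6 were called). The neurokinin B gene Tac2 had 278, 1437, 616 and 249 CPM in the 4 libraries without a sex label. In the 6 female libraries its lowest level was 866, its median 1138 and its highest 1497. Every one of these sums was above every sum of the other 4 classes. Its log2 fold change was 6.76 ± 0.43 (SE, edgeR adjusted p = 2.05e-17) and 6.80 without the Lpl class. The next class in the order was Adarb2, at 22.8 ± 47.3, and the 2 differed (edgeR adjusted p = 2.98e-21). That mean rested on female replicate 1, where the Adarb2 class had 152 CPM. Of the Adarb2 neurons, 15 lay in the habenula-like group of a clustering made without the neuropeptide genes, and these 15 held 176 of the 243 Tac2 UMIs of the Adarb2 class and 64 of its 117 Tac1 UMIs. Among Adarb2, Gad2, Lpl and C1ql3 no neighbours in the order of Tac2 differed, and their means of 4.38 to 22.8 stood beside 8.95 in glia.

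Tac1, the substance P gene, varied widely across libraries. Its habenula-like level was 3.15, 130.3, 18.4 and 1.69 CPM in the 4 libraries without a sex label. In the 6 female libraries the lowest was 59.9, the median 248 and the highest 396. Both sets overlapped, through the second library without a sex label. The log2 fold change against the other classes was 2.58 ± 0.63 (SE, edgeR adjusted p = 0.0011) and 2.50 without the Lpl class. With the 4 libraries without a sex label alone, the log2 fold change was 1.38 and no longer passed. The next class was Gad2, at 54.7 ± 61.0, and the difference from Nwd2 did not pass the test (edgeR adjusted p = 0.235). The 5 Gad2 sums were 83.5, 10.5, 17.6, 149 and 12.6, so their spread was as large as their mean. Classes were also taken from the clustering made without the neuropeptide genes. There Tac1 was at 253 ± 213 CPM in habenula-like neurons and 30.6 ± 20.5 in the Gad2-rich clusters, and these differed (edgeR adjusted p = 1.03e-07).

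Cartpt, which encodes the CART peptide, had 3.15, 23.8, 9.70 and 0.847 CPM in habenula-like neurons of the libraries without a sex label. Female libraries had 10.3 at the lowest, 18.5 at the median and 39.1 at the highest. The log2 fold change was 3.32 ± 0.89 (SE, edgeR adjusted p = 0.0032), and 1.88 without the Lpl class. PVT-like neurons came next, at 6.63 ± 5.06, and the 2 classes differed (edgeR adjusted p = 0.00425). The other neighbours did not differ for Cartpt.

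Grp was called in the same class (log2 fold change 3.66 ± 0.86 SE, edgeR adjusted p = 0.000744), from 53 UMIs in all. All 53 were in 92 Nwd2 neurons that the clustering without the neuropeptide genes placed in its Gad2-rich clusters, where 18 nuclei had a Grp UMI and none had a Chat UMI. The 709 Nwd2 neurons in the habenula-like clusters held 0 Grp UMIs, which allows a share of nuclei with a Grp UMI of up to 0.423% and does not limit the share that express the gene. With classes taken from those clusters instead, the direction turned: the habenula-like log2 fold change was -2.42 (edgeR adjusted p = 0.0314, where 20.3% of all genes were lower) and that of the Gad2-rich clusters 6.68 ± 0.24 (SE, edgeR adjusted p = 2.44e-31). Grp levels there were 46.0 ± 40.2 CPM in the Gad2-rich clusters, and the habenula-like ones held 1 UMI in all 10 libraries.

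Clusters made without the 10 genes also called 4 of 7 tested genes higher in habenula-like neurons, against 22.4% of all genes. They were Tac2 (log2 fold change 7.76 ± 0.13 SE), Tac1 (4.46 ± 0.31), Cartpt (2.59 ± 0.26) and Cck (0.59 ± 0.17), and Cck took the place of Grp. Gal, Npy and Trh failed the filter in that fit. Nts was lower in the habenula-like class by the marker split (log2 fold change -2.19, edgeR adjusted p = 0.0399, 1 of 9 tested against 10.9% of all genes), with 7 UMIs in all 10 libraries, and in the clusters (log2 fold change -2.31).

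PVT-like (C1ql3) neurons had 2 of 9 tested genes called higher, Gal and Nts, where 8.08% of all genes were. Gal, the galanin gene, had 4.90, 25.8, 16.5 and 6.00 CPM in the 4 libraries without a sex label. Female libraries ran from 6.95 through a median of 17.0 to 24.5. In each of the 10 libraries the PVT-like level was above that of the Adarb2 class and of the Nwd2 class. The log2 fold change was 3.67 ± 0.58 (SE, edgeR adjusted p = 4.36e-06), and 2.08 ± 0.24 without the Lpl class, where 12.8% of all genes were called and Nts failed the filter. Gad2 neurons came next for Gal at 5.20 ± 7.13, from 9 and 5 UMIs in 2 libraries and none in the other 3, and did not differ from C1ql3 neurons (edgeR adjusted p = 0.476). The Adarb2 and Nwd2 classes had 1.47 ± 1.12 and 1.41 ± 2.19, below the 3.09 of glia.

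Nts, the neurotensin gene, had 1.87, 12.9, 6.83 and 2.67 CPM in the PVT-like class of the libraries without a sex label. The female libraries had 6.28 at the lowest, 9.20 at the median and 22.2 at the highest. Its log2 fold change was 1.47 ± 0.36 (SE, edgeR adjusted p = 0.00333). No neighbours in the order of Nts (C1ql3, Lpl, Gad2, Adarb2, Nwd2) differed by the test. With classes from the clusters, the order began differently, with the Gad2-rich clusters at 18.9 ± 12.0 above PVT-like neurons at 9.26 ± 5.20 (edgeR adjusted p = 0.00248). In those clusters 2 of 7 tested genes, Cartpt (log2 fold change 1.02 ± 0.20 SE) and Nts (edgeR adjusted p = 1.66e-08), were called higher in PVT-like neurons, against 11.0% of all genes. Cck was lower in PVT-like neurons (log2 fold change -0.83, edgeR adjusted p = 0.00293, 1 of 9 tested against 2.13% of all genes), and without the Lpl class this call was lost, at -0.43.

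MD-like (Adarb2) neurons had 1 of 9 tested genes called higher, Cck, where 11.3% of all genes were. Cck had 87.1, 399, 196 and 129.6 CPM in the libraries without a sex label. In female libraries it ran from 211 through a median of 255 to 346. It was above the PVT-like level of the same library in 10 of 10 libraries. The log2 fold change was 1.44 ± 0.18 (SE, edgeR adjusted p = 1.80e-08), and 1.95 without the Lpl class, where 14.1% of all genes were called. The order of Cck was Adarb2 (239 ± 94.9), Lpl (212, 1 sum), Nwd2 (140 ± 98.2), C1ql3 (75.0 ± 33.0) and Gad2 (49.3 ± 41.5), and no neighbours in it differed by the test. Without the single Lpl sum, Adarb2 was above its neighbour Nwd2 (edgeR adjusted p = 1.39e-08). The lowest of these was close to the 46.0 ± 21.5 of glia. In the clusters 1 of 7 tested genes, again Cck, was called higher in MD-like neurons (log2 fold change 1.46 ± 0.13 SE), against 12.3% of all genes. There 3 of 4 neighbours differed by edgeR: MD-like were above habenula-like neurons (adjusted p = 0.000875), IMD-like above PVT-like (adjusted p = 8.05e-10) and PVT-like above the Gad2-rich clusters (adjusted p = 0.00666).

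GABAergic-like (Gad2) neurons had 2 of 9 tested genes called higher, Sst and Npy, against 3.68% of all genes. Npy averaged 0.328 CPM or less in each other class, so its place among the tested genes came from the Gad2 sums themselves. Its call therefore cannot count as a result of the test, and its levels are a description. Sst, somatostatin, had 125, 142 and 2.52 CPM in replicates 2, 3 and 4 without a sex label, and 105 and 0 in female replicates 1 and 5. Npy had 83.5, 52.3 and 0 in the former and 44.8 and 0 in the latter. Both genes were high in the same 3 of 5 libraries and at or near 0 in the same 2. The Sst log2 fold change was 5.98 ± 0.61 (SE, edgeR adjusted p = 1.63e-09), 4.44 ± 0.41 without the Lpl class, and 3.41 with replicate 3 without a sex label left out, the library that held 95 of the 118 Sst UMIs. The Npy log2 fold change was 7.56 ± 0.68 (SE), and without the Lpl class, as in the clusters, Npy failed the filter. Sst differed from the next class in the order, Adarb2 (edgeR adjusted p = 2.22e-07). Without the Lpl class 1 of 6 tested genes was called, against 5.54% of all genes. Cck was lower in the Gad2 class (log2 fold change -1.99, edgeR adjusted p = 0.000115, 1 of 9 tested against 2.16% of all genes). The class is small, with 125 nuclei in the 5 sums. The Gad2-rich clusters held 982 nuclei and called 5 of 7 tested genes higher there, against 12.4% of all genes. They were Grp, Sst (log2 fold change 5.58 ± 0.24 SE), Nts (2.54 ± 0.27), Tac1 (1.43 ± 0.43) and Cartpt (0.79 ± 0.30). Of the 982 nuclei, 99 were in the Gad2 marker class and 629 had no leading marker. A further 102 were Adarb2, 92 Nwd2 and 60 C1ql3 neurons. These calls are thus not shown to come from GABAergic neurons. In the Gad2 marker class Grp was at 4.69 ± 6.23 CPM, with a UMI in 3 of 142 nuclei.

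IMD-like (Lpl) neurons had 0 of 9 tested genes called by edgeR, where 0.278% of all genes were. At an unadjusted p under 0.05 there was 1, and DESeq2 called 1, and the shares of all genes by these rules are not given here. The class rested on 1 sum of 10 nuclei in 1 library, with 34 Cck UMIs and 1 UMI each of Nts, Tac1, Tac2 and Trh. In the clusters, which held 694 IMD-like nuclei in 10 sums, the IMD marker Crhr1 was not highest in the IMD-like class, at 9.18 CPM pooled over libraries against 10.4 in the Gad2-rich clusters, while Cdh24 and Adgrd1 were. There 1 of 7 tested genes was called higher, Cck (log2 fold change 0.86 ± 0.15 SE), against 8.68% of all genes.

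Trh failed the filter throughout. It was at 0.691 ± 0.554 CPM in the C1ql3, 0.503 ± 1.02 in the Adarb2 and 0.0485 ± 0.153 in the Nwd2 class, the last from 1 UMI. The 5 Gad2 sums held 0 Trh UMIs, which allows up to 2.25 CPM over the sums.

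**Figure D2:**
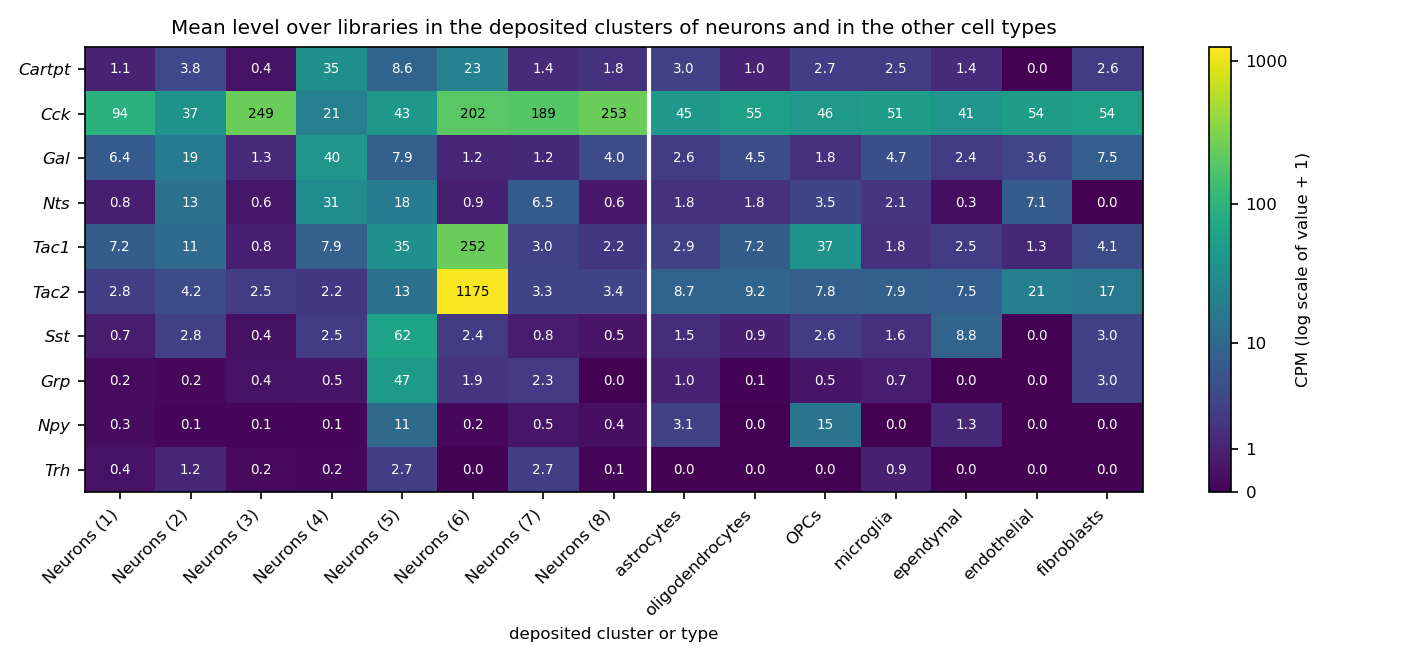
Mean level over libraries in CPM (colour, log scale of the value + 1, and numbers) of each gene (rows) in the 8 deposited clusters of neurons and the 7 other deposited types (columns). Tac2 peaks in Neurons (6) at 1175, Sst and Grp in Neurons (5), and Gal, Nts and Cartpt in Neurons (4).

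The deposited clusters were built by the study with these genes among all others, so their levels are given as a description with no test. Of these clusters 3 were rich in C1ql3, with 358 to 369 CPM in Neurons (1), (2) and (4). Among these, Neurons (4) had the highest Gal (40.2 ± 18.9), Cartpt (34.7 ± 23.0) and Nts (31.0 ± 17.9) and the lowest Cck (21.4 ± 16.0, below the level in glia). Neurons (2) had Gal at 18.6 ± 11.8 and Nts at 13.4 ± 7.92. Neurons (1), the largest with 3191 nuclei, had Cck at 94.4 ± 41.8 but Nts at only 0.80 ± 0.73. Across the C1ql3-rich clusters the order of Cck was thus the reverse of that of Gal, Nts and Cartpt.

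The cluster with the highest Gad2, Neurons (5), which also had Slc17a6 at 314 ± 59.2, held Sst at 62.4 ± 45.5, Grp at 47.4 ± 31.0, Tac1 at 35.4 ± 22.0 and Npy at 10.9 ± 12.5. No other cluster of neurons exceeded 2.83 for Sst, 2.26 for Grp or 0.543 for Npy. The Nwd2-rich cluster, Neurons (6), held Tac2 at 1175 ± 652, Tac1 at 252 ± 213, Cck at 202 ± 148 and Cartpt at 22.6 ± 13.6. Cck was of like level in the Adarb2-rich Neurons (3) at 249 ± 104, in Neurons (8) at 253 ± 123 and in the Lpl-rich Neurons (7) at 189 ± 68.9. Neurons (7) also held 17 of the 60 Trh UMIs of neurons, at 2.68 ± 2.98.

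Within the PVT-like class, subsets were set by the study's in situ markers in the same way as the classes. There were 692 Col12a1-Pde3a, 565 Drd3, 506 Esr1-Drd2, 298 Npffr1-Insrr and 237 Hcrtr1-Npsr1 nuclei in sums of at least 10 nuclei. The rest of the 4202 PVT-like neurons were in no tested subset. Of the 10 genes, only Cck and Gal passed the filter, and both differed among the 5 subsets, as did 30.2% of all 6518 genes tested (edgeR adjusted p = 7.24e-17 for Cck and 1.95e-13 for Gal). The subsets with the highest mean Cck, Col12a1-Pde3a and Esr1-Drd2, had the lowest mean Gal.

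Gal was highest in the Hcrtr1-Npsr1 subset, whose markers are the orexin receptor 1 and neuropeptide S receptor genes. There it ran from 0 through a median of 41.0 to 95.4 CPM over 8 libraries (log2 fold change 2.18 ± 0.23 SE relative to the 4 other subsets, edgeR adjusted p = 3.09e-12). The 1 of 2 genes called higher there compared with 3.02% of all genes. In the Npffr1-Insrr subset Gal ran from 11.0 through 24.3 to 87.6 over 9 libraries (log2 fold change 0.81 ± 0.26 SE, edgeR adjusted p = 0.0177), where 1 of 2 genes and 3.62% of all genes were called. Without female replicate 1 this call was lost, at 0.67. Gal was lowest in the Esr1-Drd2 subset, with 5.69 ± 6.45 and no UMI in 3 of 10 libraries, and fell by 1.95 on the log2 scale (edgeR adjusted p = 2.58e-07, 1 of 2 genes against 2.55% of all genes).

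Cck was highest in the Col12a1-Pde3a subset, where it ran from 50.9 through 91.6 to 244 (log2 fold change 1.46 ± 0.12 SE, edgeR adjusted p = 2.04e-17, 1 of 2 genes against 4.63% of all genes). It was also called higher in the Esr1-Drd2 subset, at 85.3 ± 45.2 (log2 fold change 0.62 ± 0.14 SE, edgeR adjusted p = 0.000302, 1 of 2 genes against 2.78% of all genes). It averaged 50.3 ± 23.7 in Drd3, 34.8 ± 18.8 in Hcrtr1-Npsr1 and 27.8 ± 30.2 in Npffr1-Insrr neurons. The last 2 values lay below the 46.0 of glia, and Cck was called lower in both (log2 fold changes -1.09 and -1.10, 1 of 2 genes each, against 3.3% and 4.92% of all genes). In the Drd3 subset 0 of 2 genes were called by edgeR, against 0.798% of all genes, and 0 also at an unadjusted p under 0.05. Nts and Cartpt, not tested here, were highest in the Npffr1-Insrr subset at 37.3 ± 47.6 and 19.3 ± 21.8, and Nts there ran from 0 to 146.

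**Figure D3:**
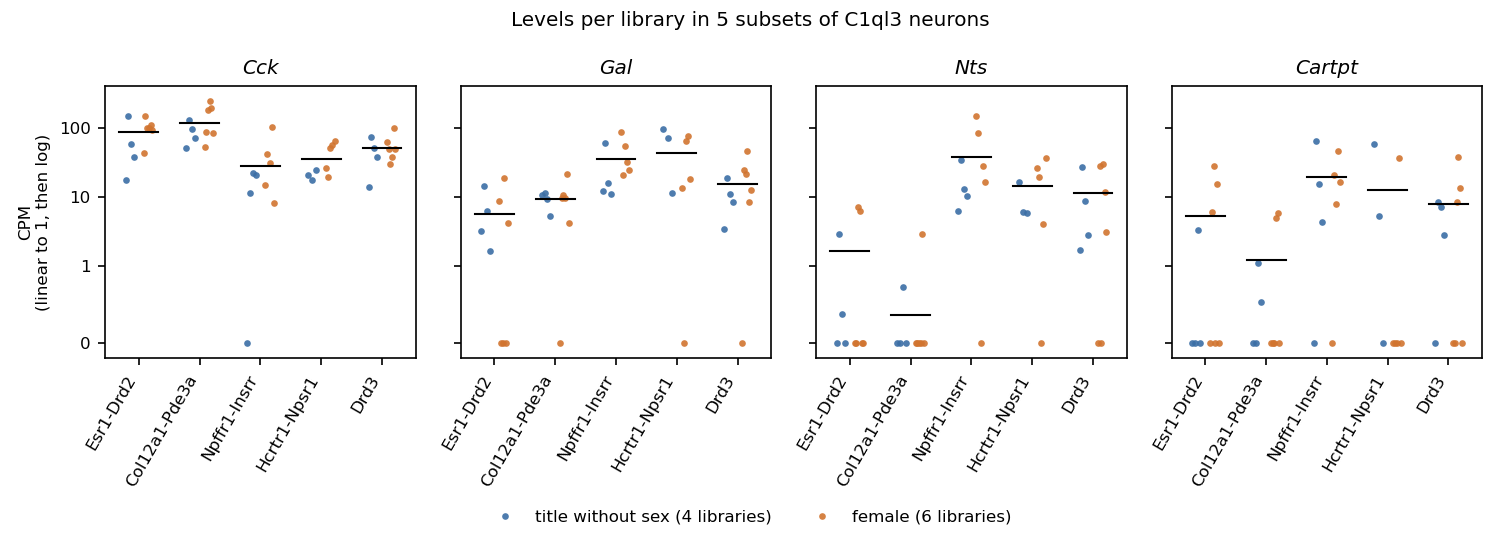
Levels in CPM (vertical axis, linear to 1 and then logarithmic) of Cck, Gal, Nts and Cartpt in the 5 subsets of PVT-like neurons (horizontal axis), with 1 point per library and a bar at the mean. Cck has its highest mean in Col12a1-Pde3a and its lowest in Npffr1-Insrr neurons, and Gal, Nts and Cartpt have their lowest means in the Esr1-Drd2 and Col12a1-Pde3a subsets.

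The habenula-like class was next divided by Chat, which encodes the enzyme that makes acetylcholine and marks cholinergic habenula neurons. Of its 815 neurons, 499 had a Chat UMI and 316 had none. The second group was shallower, with a median of 5610.5 UMIs per nucleus against 9558, so it may hold neurons whose Chat RNA was missed. It also held the 92 Nwd2 neurons that the clustering without the neuropeptide genes placed in its Gad2-rich clusters. In 9 libraries both groups had 10 or more nuclei. Each gene was compared over these 9 libraries by an exact two-sided sign-flip permutation test of the log2 differences, 10 tests in all, in which the smallest possible p is 0.00391, with Benjamini-Hochberg adjustment over the tests.

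Tac1 was almost confined to neurons without a Chat UMI. Over these 9 libraries, 17 UMIs fell in neurons with Chat and 422 in those without. With Chat, its level was 0 in 5 libraries and between 2.82 and 6.08 in the other 4. Without Chat it was 5.93, 318, 67.0 and 5.78 CPM in the libraries without a sex label. In the 5 female libraries it was 329, 294, 639, 648 and 142. It was lower with Chat in 9 of 9 libraries (exact permutation p = 0.00391, adjusted p = 0.0195), with means of 2.19 ± 2.75 and 272 ± 245. In replicates 1 and 4 without a sex label the levels without Chat, from 1 and 2 UMIs, were near those with Chat.

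Cck followed the same split, at 27.5 ± 17.3 with Chat and 264 ± 188 without, and was lower with Chat in 9 of 9 libraries (exact permutation p = 0.00391, adjusted p = 0.0195). The level with Chat was below the 46.0 ± 21.5 of glia. Cartpt averaged 8.70 ± 6.79 and 24.9 ± 18.7, lower with Chat in 8 of 9 (exact permutation p = 0.00781, adjusted p = 0.026). Tac2 was high in both groups, at 852 ± 508 with Chat and 887 ± 535 without, and did not pass the test (exact permutation p = 0.727, higher with Chat in 5 of 9). When the habenula-like clusters were divided in place of the marker class, Tac2 was lower with Chat in 9 of 9 libraries, by 0.67 on the log2 scale (exact permutation p = 0.00391, adjusted p = 0.00879). In that division Cck and Tac2 passed edgeR's filter, and both were lower with Chat (Cck log2 fold change -3.56, edgeR adjusted p = 9.97e-07, and Tac2 -0.67, edgeR adjusted p = 0.00167), where 4.81% of 3621 genes were lower and 5.69% higher. In the marker class itself Tac2 alone of the 10 passed the filter and did not differ (edgeR adjusted p = 0.686), where 8.63% of 4137 genes were higher with Chat. Grp had 53 UMIs in the neurons without Chat and 0 in those with it, which allows up to 0.575 CPM. All 53 lay in the 92 neurons placed in the Gad2-rich clusters. In the divided habenula-like clusters Grp had 0 UMIs with Chat and 0 without.

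**Figure D4:**
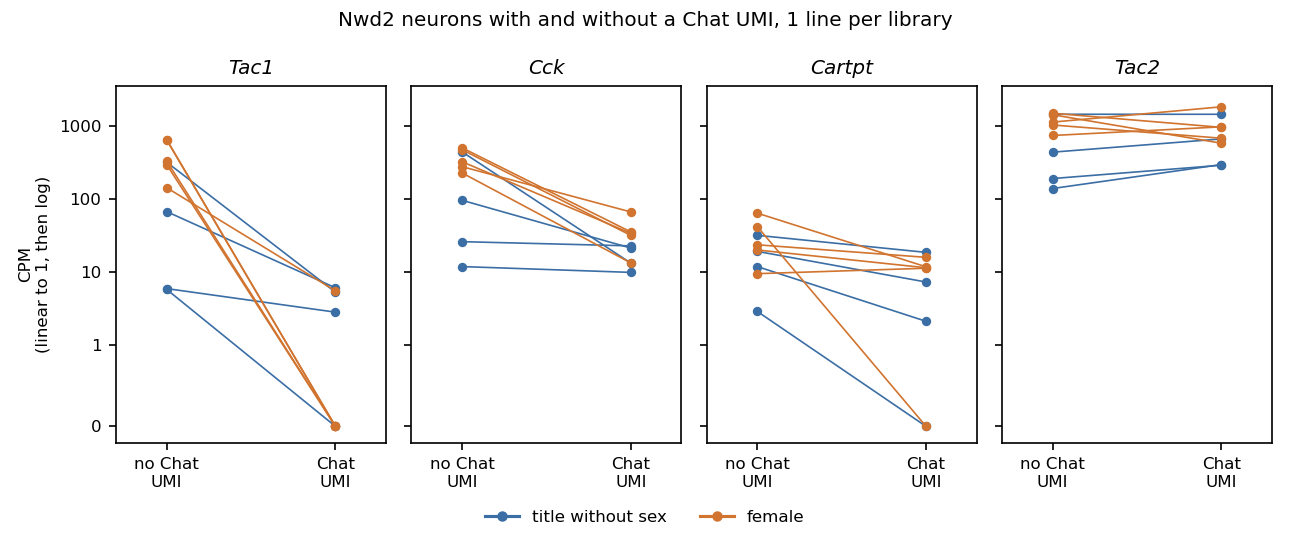
Levels in CPM (vertical axis, linear to 1 and then logarithmic) in habenula-like neurons with and without a Chat UMI (horizontal axis). Each line joins the 2 groups of 1 library (blue, title without sex; orange, female). Tac1 and Cck rise from the Chat group to the other in all 9 libraries, and Tac2 is high in both.

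Tac1 and Cck were also found in the same nuclei. In Neurons (6), 239 of 870 nuclei had a Cck UMI and 148 a Tac1 UMI, and 110 had both, where 49.5 would have both if the genes fell independently within each library. Cartpt and Tac1 shared 31 nuclei against 18.9, and Tac1 and Tac2 shared 141 against 128. For the PVT-like pair, Gal and Nts shared 30 nuclei of Neurons (2) against 15.2, and 43 of Neurons (4) against 43.5. These counts are descriptions. Nuclei of greater depth hold more UMIs of every gene, and the part of depth was not tested.

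To set the share of expressing nuclei beside its background, each nucleus was thinned to 1500 UMIs and shallower nuclei were left out. Pooled over libraries, a Tac2 UMI was then found in 403 of 813 habenula-like neurons, 49.6% (95% Clopper-Pearson interval 46.1 to 53.1%), and in 1.13% of 4769 astrocytes. The mean over libraries was 55.3% ± 14.3, and 74.9% with no thinning. Cck was found in 25.9% (23.8 to 28.1%) of MD-like neurons, against 9.21% of PVT-like neurons and 7.13% of astrocytes. Its share in glial and vessel types ran from 5.93 to 10.3%, so PVT-like (9.21%), habenula-like (8.86%) and GABAergic-like neurons (7.04%) of the marker classes were within it at this depth. The deposited clusters, built with these genes, went both ways. Cck was found in 14.2% (12.0 to 16.7%) of the Nwd2-rich Neurons (6). In the C1ql3-rich Neurons (1), (2) and (4) it was 11.5%, 5.24% and 3.3%. With no thinning, Cck was found in 40.1% of PVT-like, 21.7% of habenula-like and 21.8% of GABAergic-like neurons. Glial and vessel types then ran from 12.3 to 20.3%, but their nuclei are shallower. Neither setting tells expression from free RNA. Intervals cover counting error only.

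Tac1 was found in 5.54% (4.07 to 7.34%) of habenula-like neurons and in 6.41% (4.30 to 9.13%) of the 437 oligodendrocyte precursor cells (OPCs), with 28 nuclei. At this depth the share in habenula-like neurons of the marker class was therefore not above that in 1 glial type. In the deposited Nwd2-rich Neurons (6), a cluster built with these genes among all others, it was higher. There 96 of 864 nuclei had a Tac1 UMI, 11.1% (9.09 to 13.4%). Gal was found in 1.76% of PVT-like neurons (1.39 to 2.21%), against 0.419% of astrocytes and 2.42% of endothelial cells, the last from 3 of 124 nuclei (0.502 to 6.91%). Without thinning, the mean over libraries was 10.2%, and 0.835% in astrocytes, which are shallower. Sst was found in 4.93% (2.00 to 9.89%) and Npy in 5.63% (2.46 to 10.8%) of 142 GABAergic-like neurons, against up to 0.847% and 1.37% in the other cell types.

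**Figure D5:**
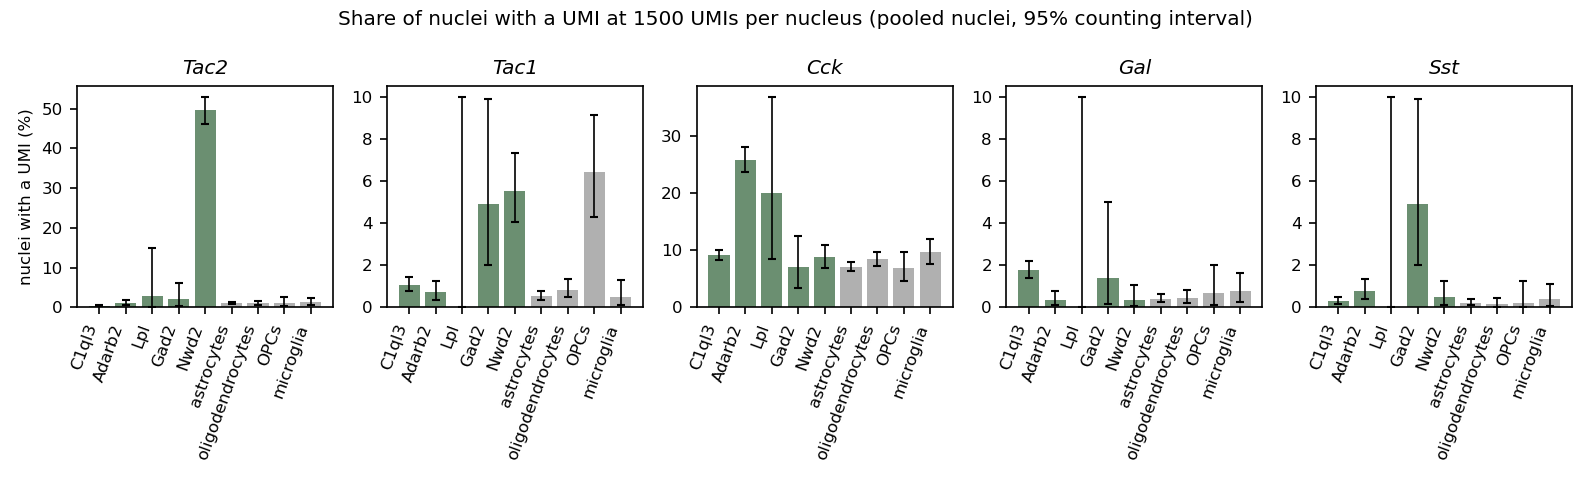
Percentage of nuclei with a UMI of the gene (vertical axis, from 0) in classes of neurons and in other cell types (horizontal axis), with nuclei of all libraries pooled and thinned to 1500 UMIs. Bars are 95% counting intervals. Tac2 reaches 49.6% in habenula-like neurons, and Cck reaches 25.9% in MD-like neurons above a glial range of 5.93 to 10.3%.

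Levels were compared between the female libraries and those without a sex label, within each class. No gene was called by edgeR: 0 of 5 tested in C1ql3 (14.0% of all genes called), 0 of 1 in Adarb2 (8.81%), 0 of 3 in Gad2 (3.82%) and 0 of 3 in Nwd2 neurons (6.71%). At an unadjusted p under 0.05 there were 2 of 5 in C1ql3 and 2 of 3 in Nwd2 neurons, and none in the others. The share of all genes at that threshold is not given here, so nothing is concluded from these counts. DESeq2 called none. The largest was Tac1 in habenula-like neurons, at 246 ± 140 in female libraries and 38.4 ± 61.7 in the rest (log2 difference 2.79 ± 0.86 SE, edgeR adjusted p = 0.0764).

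These counts turned on 1 library. Without replicate 2 without a sex label, 6 differences passed the edgeR test, all higher in female libraries. They were Cck in Nwd2 (log2 difference 2.93, adjusted p = 8.32e-05), C1ql3 (1.09, adjusted p = 0.0122) and Adarb2 neurons (0.85, adjusted p = 0.0154), Tac1 (4.62, adjusted p = 0.000156) and Tac2 (1.53, adjusted p = 0.0013) in Nwd2 neurons, and Nts in C1ql3 neurons (1.42, adjusted p = 0.0425). In that fit 16.0% of all genes differed in Nwd2, 23.1% in C1ql3 and 10.5% in Adarb2 neurons. Of the 4 libraries without a sex label, replicate 2 had the highest Tac2 and Tac1 in Nwd2, Cck in Adarb2, and Gal and Nts in C1ql3 neurons. Leaving it out thus lowered the mean of that set for these genes. It was 1 of 10 fits that each left out 1 library, and they gave 0 to 6 such differences. The sets also differ in depth, which cannot be told apart from sex.

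A difference between the library sets in the class contrast itself was also tested. No gene passed in the C1ql3, Adarb2, Gad2 or Nwd2 contrast (0 of 9 each by edgeR, where 0.00713%, 0.00713%, 0.0% and 0.121% of all 14016 genes did). At an unadjusted p under 0.05 there were 3 in C1ql3 and 2 in Nwd2, and DESeq2 called 2 over all contrasts. The shares of all genes by these rules are not given here, so nothing is concluded from these counts. Without female replicate 1, Tac1 (4.20, edgeR adjusted p = 7.31e-06) and Cck (1.31, adjusted p = 0.0298) passed in Nwd2, and Cck alone did without female replicate 5 (1.39, edgeR adjusted p = 0.0092) or replicate 2 without a sex label (1.55, adjusted p = 0.0416). In the clusters, 3 of 9 passed for the habenula-like contrast, Tac1, Tac2 and Cck, each larger in female libraries, as did 3.0% of all genes. A set difference within 1 cluster class passed only for Nts in the Gad2-rich clusters (log2 difference 1.78, edgeR adjusted p = 0.00295, 1 of 5 tested, against 7.66% of all genes). The share of Nwd2 neurons in which Chat was detected also differed between the sets. A Chat UMI was seen in 86.5, 58.7, 73.2 and 69.0% of Nwd2 neurons in the libraries without a sex label and in 39.5 to 53.2% in the female ones, with no overlap. The median neuron had 13637 UMIs in the former and 6876 in the latter, and the part of depth in this share was not tested. Neurons without Chat carry most of the Tac1 and Cck, and the part of this share in the differences was not tested. In neurons without Chat alone, Tac1 was 410 ± 224 CPM in 5 female libraries and 99.1 ± 149 in the 4 others, and the ranges of 142 to 648 and 5.78 to 318 overlapped.

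Genes whose levels closely followed those of a neuropeptide gene were listed over the 36 class sums, among 15852 genes (Pearson r of log2 levels). Sums of 1 class share its markers and sums of 1 library share its depth, so r is a description. Tac2 was most like Pou4f1, a habenula transcription factor gene (r = 0.95), and Gal most like Drd1, the dopamine receptor gene (r = 0.92). Npy was most like Six3 (0.93), a transcription factor gene of forebrain GABAergic neurons. Tac1 was nearest Pde11a (0.86), Nts nearest Htr1d (0.82), Cck nearest Hsph1 (0.85), Cartpt nearest Mrps34 (0.77) and Grp nearest Gpr62 (0.71).

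The machinery that makes and senses these peptides was followed in lists of related genes. Of 24 genes of peptide processing and dense-core vesicles, 23 were tested and 17 were higher and 4 lower in neurons than in glia, where 28.3% of all genes were higher and 33.2% lower, with a median log2 fold change of 1.97 against -0.05 over all genes. The convertase genes Pcsk2 (3.32 ± 0.14 SE) and Pcsk1 (3.00 ± 0.20) led them. In habenula-like neurons 6 of 23 were higher and 7 lower, against 15.2% and 10.9% of all genes. Cadps2, a gene of dense-core vesicle priming, was higher there (5.82 ± 0.52), as was Pam, which encodes the enzyme that amidates substance P and neurokinin B (2.94 ± 0.15). In PVT-like neurons 6 were higher and 1 lower, against 8.08% and 2.13% of all genes, led by Cadps2 (3.26 ± 0.95) and the convertase gene Pcsk5 (3.03 ± 0.22). MD-like neurons had 4 higher and 6 lower, against 11.3% and 3.29% of all genes, led by Syt7 (1.41 ± 0.12). GABAergic-like neurons had 6 higher and 2 lower, against 3.68% and 2.16%. The list medians were -0.04, 0.33, -0.10 and 0.20 in these 4 classes, against 0.20, 0.16, 0.17 and 0.08 over all genes.

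Of 23 receptor genes for these peptides, 12 were tested between classes. The substance P receptor gene Tacr1 was higher in the habenula-like class (7.22 ± 0.23 SE, edgeR adjusted p = 7.34e-28), with Sstr2 (2.89 ± 0.24), and 2 other receptor genes were lower, against 15.2% and 10.9% of all genes. PVT-like neurons had 3 higher and none lower: Npy2r (3.41 ± 0.65), the galanin receptor gene Galr1 (2.12 ± 0.25, edgeR adjusted p = 9.31e-09) and Tacr3 (0.91 ± 0.28), against 8.08% of all genes higher and 2.13% lower. Within the PVT-like class Galr1 was higher in the Esr1-Drd2 (1.14 ± 0.14) and Col12a1-Pde3a subsets (0.85 ± 0.13), the subsets with the lowest mean Gal, and in Drd3 neurons (0.57 ± 0.14). MD-like neurons had 2 higher, Ntsr1 (3.42 ± 0.72) and Npy1r (2.07 ± 0.31), against 11.3% of all genes, and GABAergic-like neurons had none, against 3.68%. The medians of the 12 genes in the habenula-like, PVT-like, MD-like and GABAergic-like classes were 0.21, 0.81, 0.21 and 1.37, against 0.20, 0.16, 0.17 and 0.08 over all genes. These medians depended on the single Lpl sum. Without the Lpl class 7 receptor genes were tested, and the medians were 0.05, -0.33, 0.05 and -0.08. PVT-like neurons then had 2 higher and 3 lower, and MD-like neurons 2 higher and 2 lower. Of all genes, 12.8% and 14.1% were higher in these 2 classes, and the shares lower are not given here.

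Of 36 other neuropeptide genes, 14 were tested between classes. PVT-like neurons had 3 higher, Hcrt (4.09 ± 0.87 SE), Nppc (1.27 ± 0.28) and Agrp (0.51 ± 0.16), where 8.08% of all genes were higher. Hcrt encodes orexin and Agrp the agouti-related peptide, both known from hypothalamic neurons. GABAergic-like neurons had Pnoc (5.59 ± 0.72) and Penk (4.45 ± 0.90) higher, which encode nociceptin and the enkephalins, against 3.68% of all genes. Habenula-like neurons had Pdyn (3.86 ± 0.80) and Adcyap1 (1.43 ± 0.48) higher and 1 lower, against 15.2% and 10.9% of all genes, and MD-like neurons had Pnoc higher (3.57 ± 0.76), against 11.3%. The medians of the tested genes were 0.81, 1.16, 0.17 and 0.60 in these 4 classes, against 0.16, 0.08, 0.20 and 0.17 over all genes. They too depended on the single Lpl sum. Without the Lpl class 4 of these genes were tested, and the medians were -0.35, 0.17, -1.002 and -0.04. The medians over all genes are not given here for that fit. PVT-like neurons then had 1 higher and 1 lower, and habenula-like neurons 1 higher and 2 lower. GABAergic-like and MD-like neurons had 1 higher each and none lower. In the fit without the Lpl class, Hcrt, Agrp, Npy2r, Ntsr1, Penk and Pdyn were not called or not tested, and Cadps2 and Tacr1 in habenula-like neurons came to 2.96 and 5.52.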

How the data were processed

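Nuclei from PVT punches were sequenced in 10 libraries. The deposited UMI counts were made by the authors with Cell Ranger (6.1.1 in the submitters' notes, mm10), with nuclei under 200 genes or over 5% mitochondrial UMIs and doublet or low-quality clusters removed. The deposited mitochondrial percentage of each nucleus, computed by the authors, reached 4.99%. Cluster names were the authors'. The 10 genes, the marker lists and the tests were chosen with earlier results of these data known. All 10 genes are described in every class, list genes by count, and by name at most 4 per list and class of those called higher. Counts were summed per library and class (at least 10 nuclei) and tested with edgeR 4.0.16 (quasi-likelihood, TMM, filterByExpr, library as a block) in R 4.3.3, with Benjamini-Hochberg adjustment over all genes tested. Same-library sums come from 1 pool of mice, which is where the block comes from, and p-values measure the spread between libraries. Subsets used a marker minimum of 1 UMI. As an alternative, neurons were clustered without the 10 genes (3000 variable genes, 10 components, Harmony-type correction by library, Leiden, 12 clusters) in Python 3.11.15 with scikit-learn 1.9.0 and igraph 0.11.9. DESeq2 1.42.0, other filters, marker rules, left-out libraries and no block were also tried. On simulated counts for the Nwd2 contrast (13802 genes), 59 of 100 genes changed 2-fold and 85 of 100 changed 4-fold were recovered, with 2 false calls. Libraries held 5119927 to 55956635 UMIs. Values of some marker and co-varying genes are not reported here.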

Additional observations from a re-analysis of the deposited data

Results flagged for a closer look

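Of 14 groups of 4 or more sums of the same kind, 2 held a value far from the rest, and chance alone gives such a value in about 1 in 20 groups. Tac1 in habenula-like (Nwd2) neurons reached 130.3 CPM in replicate 2 of the libraries without a sex label, where the other 3 had 1.69 to 18.4. Grp in the Nwd2 marker class reached 25.6 CPM in female replicate 1, where the other 5 female libraries had 0 to 6.76. All Grp UMIs of that class lay in nuclei that the clustering without the 10 genes placed in its Gad2-rich clusters, not in the habenula-like ones.

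With classes taken from clusters made without the 10 genes, the habenula-like contrast differed between the library sets for 3 genes by edgeR's interaction test. It was larger in the female libraries by 2.89 ± 0.54 (log2, SE) for Tac1 (adjusted p = 0.00072), by 1.26 ± 0.37 for Tac2 (edgeR adjusted p = 0.0478) and by 1.02 ± 0.30 for Cck (edgeR adjusted p = 0.0441). With the marker classes none of these passed. The library sets also differ in depth and annotation, and these cannot be told apart from sex.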

How the results depend on the processing

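Across the alternatives, 415 of the tested values of single genes kept their direction and side of the threshold, 18 lost and 3 gained a call and 2 reversed; 167 counts stayed within 1.5 times and 40 did not. The 2 reversals, both with classes from the clusters made without the 10 genes, were Grp in Nwd2 neurons (-2.42) and Tac2 with against without Chat (-0.67). Counts of genes called higher changed as follows. For most of these settings the share of all genes is not given here, so the counts describe stability only. C1ql3 went from 2 to 1 at no more than 1% mitochondrial UMIs, with the 4 libraries without a sex label alone and without the Lpl class. Lpl went from 0 to 1 with a marker minimum of 1 UMI, with the clusters, by DESeq2 and with no filter. Gad2 went from 2 to 1 with a minimum of 3 UMIs, a marker 4 times the others or no Lpl class, to 5 with the clusters and to 0 in the female libraries alone, and was 1 to 2 on leaving out each library (1 without replicate 3 without a sex label). Subsets of C1ql3 went from 2 to 1 with a marker 4 times the others, at no more than 1% mitochondrial UMIs and in female libraries alone, to 6 by DESeq2 and with no filter and to 5 in the other 4 libraries, and were 1 to 2 on leaving out each library (1 without replicate 2 without a sex label, female replicate 3 or female replicate 4). Differences between library sets went from 0 to 2 (marker 4 times the others, no filter) and 1 (clusters, 1% mitochondrial), and were 0 to 6 on leaving out each library. Set differences in the class contrasts went from 0 to 2 (3 UMIs, 4 times, DESeq2) and 3 (clusters, 1% mitochondrial, no filter), and were 0 to 2 on leaving out each library. Neighbouring classes that differed went from 6 of 36 to 14 of 28 with the clusters and 6 of 18 without the Lpl class. Not thinned, the mean share of nuclei with a UMI was 74.9% for Tac2 in Nwd2, 80.8% for Cck in Adarb2 and 10.2% for Gal in C1ql3 neurons. Fits with no replicate block (the library pairs the sums) moved no count of calls by over 1.5 times; Cartpt in Nwd2 neurons (3.44), Cck in the Esr1-Drd2 (0.80) and Hcrtr1-Npsr1 (-0.95) and Gal in the Npffr1-Insrr subset (1.23) lost their calls, and no other call of a single gene was lost. In the 4 libraries without a sex label alone, Tac1 in Nwd2 (1.38) and Nts in C1ql3 neurons (1.09) lost theirs, as they did at no more than 1% mitochondrial UMIs (1.54 and 1.19). On leaving out each library, Sst in Gad2 neurons ran from 3.41 to 6.15, Gal in C1ql3 from 2.33 to 3.84 and Cartpt in Nwd2 from 1.77 to 3.44. The cause of these changes was not tested. Depth limits the rare genes: the 5 Gad2 sums together allow up to 2.25 CPM at a count of 0, and the Lpl sum 18.7.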

Other observations

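Outside neurons, the levels of 2 of the 10 genes in oligodendrocyte precursor cells (OPCs, defined by the deposited names and highest in Pdgfra) are given here beside other glia; neither passed after Benjamini-Hochberg adjustment over the 10 tests. Tac1 averaged 36.6 ± 18.5 CPM in OPCs over 9 libraries, 3.13 ± 1.41 in astrocytes and 6.56 ± 4.60 in oligodendrocytes of the same libraries, and was higher in 8 of 9 (exact two-sided permutation p = 0.0117, adjusted p = 0.0586, smallest p possible 0.00391). Npy averaged 14.5 ± 11.1, 3.35 ± 3.48 and 0, and was higher in 8 of 9 (exact permutation p = 0.00781, adjusted p = 0.0586). The other 8 genes had unadjusted exact permutation p from 0.0508 to 1. The neuronal genes Slc17a6 and Rbfox3 were at 110 and 31.9 CPM in OPCs, 108 and 19.8 in astrocytes and 134 and 31.3 in oligodendrocytes.

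Neurons with no leading marker, 3451 of 10307, held much of several of these genes. Their Grp level was 10.0 ± 7.83 CPM, from 205 UMIs, above the mean of every marker class. Tac2 averaged 107 ± 171 and Tac1 45.3 ± 63.0 there. Of these neurons, 942 lay in the deposited cluster Neurons (1), 597 in Neurons (5) and 134 in the Nwd2-rich Neurons (6).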
